A study of Rattus norvegicus with 10 samples.

Results

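The genes described here encode the protein subunits of the cytosolic ribosome. They were taken from the count table by symbol, as the Rpl and Rps genes together with Rplp0, Rplp1, Rplp2 and Rpsa, leaving out pseudogenes and the S6 kinase genes. The rule found 82 of the 17168 genes in the table, 49 of the large subunit and 33 of the small subunit. The filter on low counts kept 80 of them. The large-subunit paralogs Rpl39l and Rpl3l did not pass it, with estimated counts between 0 and 14 and between 1 and 9 per library.

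The tissue was the left hippocampus, taken for RNA sequencing at 11 months of age from female rats of the TgF344-AD line, which carries human transgenes with Alzheimer mutations under the mouse prion promoter. The untreated group was 5 rats on ordinary rodent chow. The RG2833 group was 5 rats on chow that held 750 mg of RG2833 per kg from 5 months of age, for 6 months. RG2833 is an inhibitor of the histone deacetylases HDAC1 and HDAC3, and a blue food dye told the diets apart. All animals carry the transgenes, so the comparison is between transgenic groups and holds no wild-type animals.

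The ribosome is built from ribosomal RNA and a set of proteins that assemble in near-equal numbers, and the large subunit joins amino acids while the small subunit reads the mRNA. Ribosomal protein mRNAs are among the most abundant of a cell. Many begin with a terminal oligopyrimidine (TOP) tract, a C at the first transcribed base followed by a run of C and T, through which mTOR and LARP1 control their translation and stability together. In neurons, ribosomes and ribosomal protein mRNAs are found in dendrites and axons as well as in the cell body.

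The starts of member genes at both ends of the range of change are shown so that the start signal can be read beside the size of the change. Sequences are from the RefSeq promoter table (build GRCr8), which held 66 of the 82 members by symbol. Each run gives 10 bases before and 20 bases from the annotated first transcribed base, 5′ to 3′ on the transcribed strand. Capitals mark a TOP tract, defined here as a C at the first transcribed base with at least 4 further C or T bases behind it and searched on the transcribed strand only. The first 5 are the members with the lowest log2 fold changes among those with a sequence, and the last 5 those with the highest.
Rpl39, GRCr8 chrX:121195877-121195906, minus strand: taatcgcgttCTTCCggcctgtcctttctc
Rpl38, GRCr8 chr10:100200425-100200454, plus strand: ttctttttccgttgttcggtgctcgctcct
Rps27, GRCr8 chr2:177964587-177964616, minus strand: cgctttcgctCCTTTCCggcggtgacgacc
Rpl22l1, GRCr8 chr2:113683186-113683215, plus strand: gtggatatccggttccgagttgcgcagcgc
Rps28, GRCr8 chr7:15311314-15311343, minus strand: ccctgctcacgtgactcctctccgctagat
Rplp0, GRCr8 chr12:46718371-46718400, minus strand: caccgcacttCTCTCgccaggcgtcctcat
Rpl5, GRCr8 chr14:1995206-1995235, minus strand: ctttcccacgtcgcttgcgtcctggaggtg
Rps16, GRCr8 chr1:92770648-92770677, plus strand: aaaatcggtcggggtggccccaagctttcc
Rpl37a, GRCr8 chr9:81748081-81748110, plus strand: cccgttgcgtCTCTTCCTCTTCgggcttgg
Rps2, GRCr8 chr10:14251838-14251867, plus strand: tctttttcttcgggaaaacacgtgagtctg
A TOP tract at the annotated start was found in 24 of the 66 members (36.4%) and in 2.63% of all 27457 promoters in the table. A match is a description of these letters, and an annotated start can lie some bases from the true one. Within a window from 10 bases before to 15 bases after the start, the same letters stood in 49 of the 66 members (74.2%) and in 28.8% of all promoters.

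The libraries differed in ways that touch the members. Total estimated counts ran from 8764266 to 11311673. Ribosomal RNA loci held 2.70% to 5.36% of counts in untreated and 1.13% to 1.96% in RG2833 animals, without overlap, and the labels name no batch. Untreated replicate 1 stood apart with a summed level of choroid plexus markers of 2417 CPM (the library-scaled count, here after TMM scaling), against 7.73 to 45.6 CPM in the other 9 libraries. The 8 markers of excitatory neurons, the main cells of the hippocampus, were all detected in each library. Each library is from 1 rat, and the labels give no litter or cage, so the p-values measure the spread between these rats.

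Ribosomal protein mRNAs were lower in the RG2833 animals across both subunits. Of the 80 members tested, 46 were lower and 0 were higher at an adjusted p under 0.05 by the quasi-likelihood test of edgeR, with p-values adjusted by Benjamini and Hochberg's method over all 11791 tested genes. Over all tested genes, 2.67% were called lower and 2.41% higher. The median log2 fold change of the members was -0.48, which corresponds to 71.9% of the untreated level, against -0.0035 over all tested genes. At an unadjusted p under 0.05, 69 members were lower and 0 higher, against 12.7% and 11.8% of all tested genes. DESeq2's Wald test called 66 lower and 0 higher (5.75% of all tested genes lower), and limma-voom called 41 lower and 0 higher (2.16%). With limma's trend method on the deposited signal, 45 (2.5%) and 44 (2.37%) were lower at pseudocounts of 1 and 0.1. In edgeR, 48 were lower with DESeq2 size factors (2.78%), 53 with library totals only (3.11%), 48 with TMM factors computed without the members (2.95%) and 48 without ribosomal RNA loci and Bc1 (2.85%). With no filter on low counts 40 were lower (1.75%), and with a mean count of at least 50, 51 (3.54%). With the replicate number as a block, 23 were lower (0.933%). The calls were lost in 2 other fits. With the log2 share of counts at ribosomal RNA loci as a covariate, 0 of 80 members passed (edgeR; 0.017% of all tested genes called lower; 7 members lower and 0 higher at an unadjusted p under 0.05) and their median log2 fold change was -0.21. With 1 surrogate variable, 0 of 80 passed as well (edgeR; 0.0424% of all tested genes; 57 members lower and 0 higher at an unadjusted p under 0.05), with a median of -0.44. The shares of all tested genes at an unadjusted p in these 2 fits are not given here. Less RNA per cell and fewer cells of a type rich in these mRNAs cannot be told apart in bulk tissue.

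The number of calls rested on the animals. Without untreated replicate 1, the animal with choroid plexus markers, 24 members were called lower (0.989% of all tested genes). Without untreated replicates 2, 3, 4 and 5 in turn, 34 (1.29%), 19 (0.642%), 60 (6.3%) and 66 (4.37%) were called lower. Without RG2833 replicates 1 to 5 in turn, 18 (0.726%), 16 (0.624%), 16 (0.616%), 29 (1.17%) and 17 (0.556%) were called lower. The median log2 fold change of the members stayed between -0.56 and -0.38 in these fits. In all 10 fits 16 members passed, against 0.492% of all tested genes called lower in each of them. Among the 16 were, named after their values were seen, Rpl22l1, Rpl24, Rpl27, Rpl30, Rpl35, Rpl35a, Rpl36a, Rpl37, Rpl38, Rpl39, Rps23, Rps25, Rps27, Rps28 and Rps29. The other members called lower passed in fewer, such as Rplp2 in 5, Rps27a in 3 and Rps14 in 2.

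The large subunit had 25 of 47 members called lower, with a median log2 fold change of -0.42. The small subunit had 21 of 33 called lower, with a median of -0.49. The fitted changes ran from -1.08 to -0.06 in the large and from -0.89 to 0.01 in the small subunit, so the ranges covered much the same span, and the difference between the subunits was not tested.

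**Figure D1:**
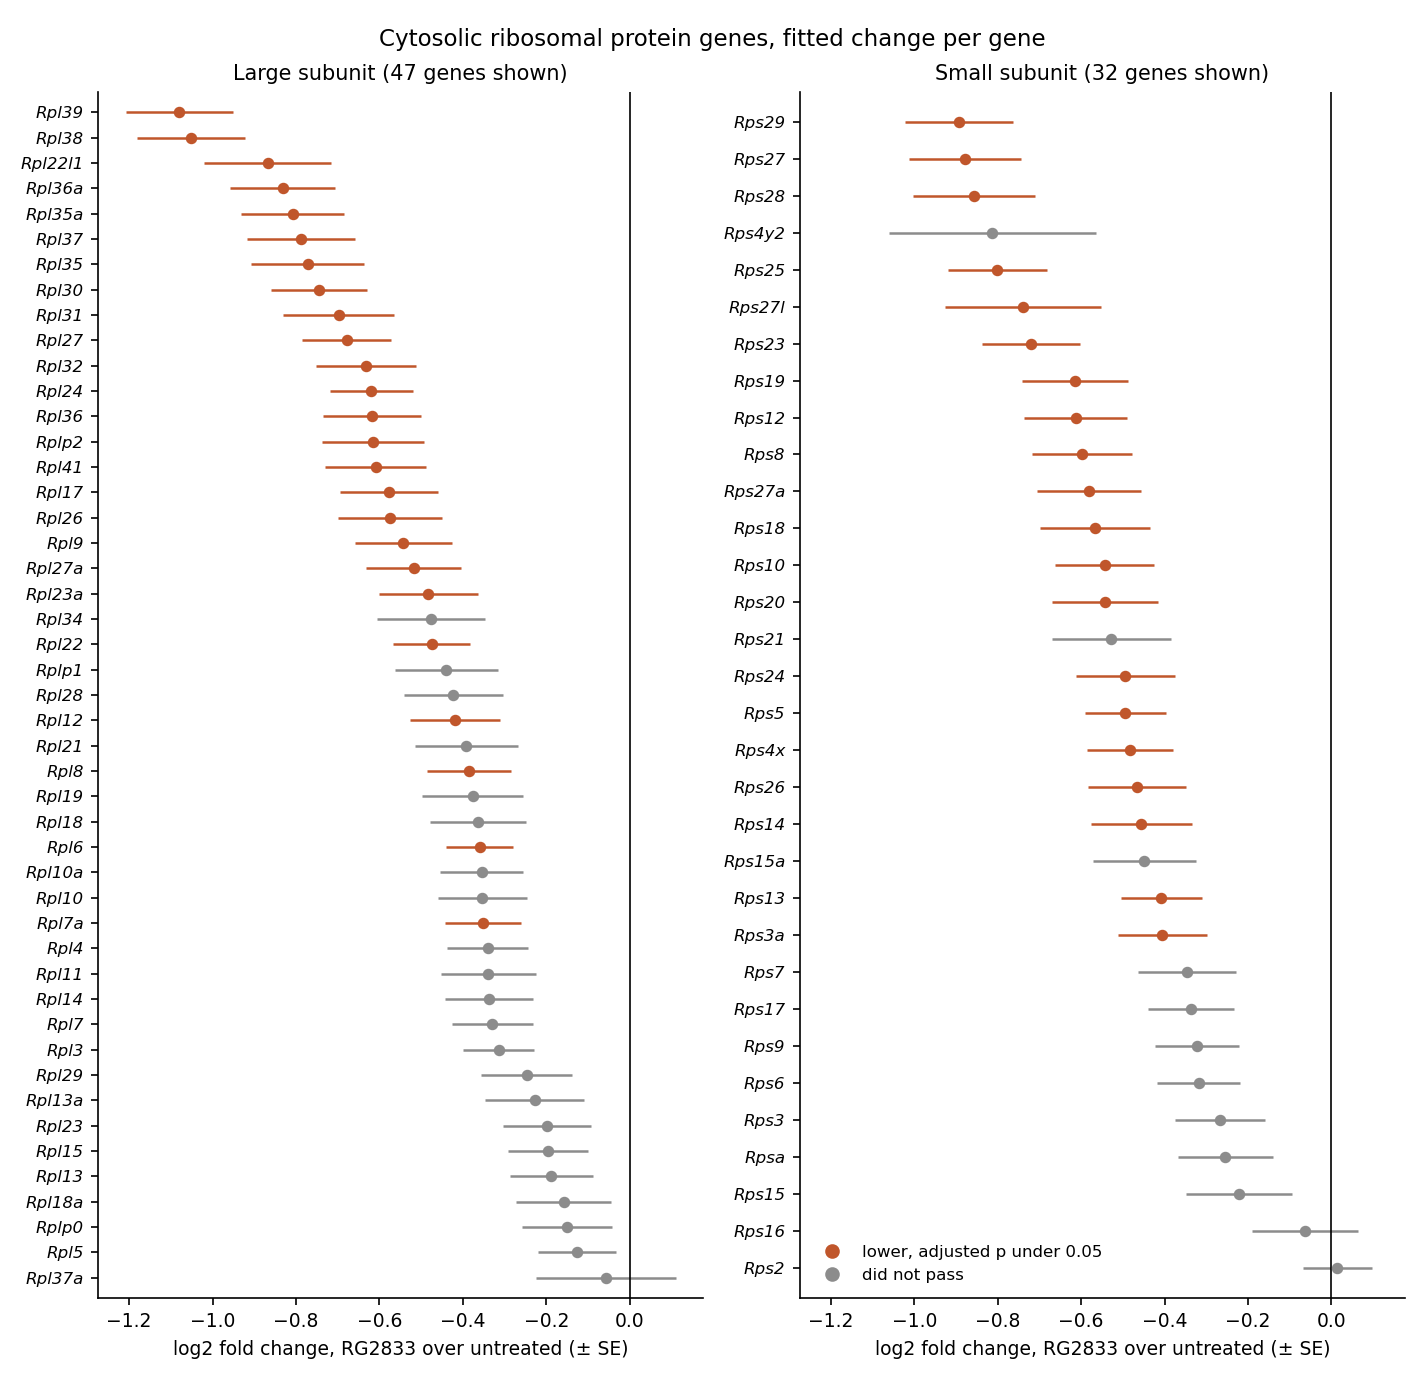
Fitted log2 fold change (RG2833 over untreated, horizontal axis) with its standard error for 47 large-subunit and 32 small-subunit genes. Red points were called lower at an adjusted p under 0.05 (25 and 20 genes) and grey points did not pass. Of the 79 estimates shown, 78 lie below 0.

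In 37 of the 80 members, each RG2833 value lay below each untreated value, and in 0 members above. Among all tested genes, 3.47% were separated in this way with RG2833 lower and 3.8% with RG2833 higher. The level per animal was summarised as the mean over members of log2 CPM centred on each gene's mean. For the large subunit it was 0.40, 0.54, 0.26, 0.08 and -0.13 in untreated replicates 1 to 5, and -0.24, -0.23, -0.25, -0.15 and -0.28 in RG2833 replicates 1 to 5. For the small subunit it was 0.41, 0.57, 0.29, 0.08 and -0.14 in the untreated animals, and -0.24, -0.23, -0.26, -0.17 and -0.31 in the RG2833 animals. The untreated animals were spread widely and the RG2833 animals lay close together. Untreated replicate 5 came nearest to the RG2833 range, separated from RG2833 replicate 4 by less than the spread within either group.

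The group difference in this level was -0.46 for the large and -0.48 for the small subunit. The untreated SDs were 0.26 and 0.28, and the RG2833 SDs were 0.05 for each subunit (n = 5). Untreated replicate 2 had the highest value of all 10 animals in 72 of the 80 members. Untreated replicate 5 had the lowest untreated value in 76. The number of members in which an untreated animal exceeded all 5 RG2833 animals was 79, 80, 79, 69 and 38 for untreated replicates 1 to 5.

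As a share of all counts, which uses no scaling between libraries, the 82 members took 2.70%, 3.09%, 2.41%, 2.23% and 1.95% in the untreated animals. In the RG2833 animals they took 1.80%, 1.83%, 1.85%, 1.93% and 1.77%. The means were 2.47 ± 0.437% and 1.84 ± 0.0607% (SD, n = 5 each). The groups did not overlap, but the lowest untreated and the highest RG2833 share nearly met.

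**Figure D2:**
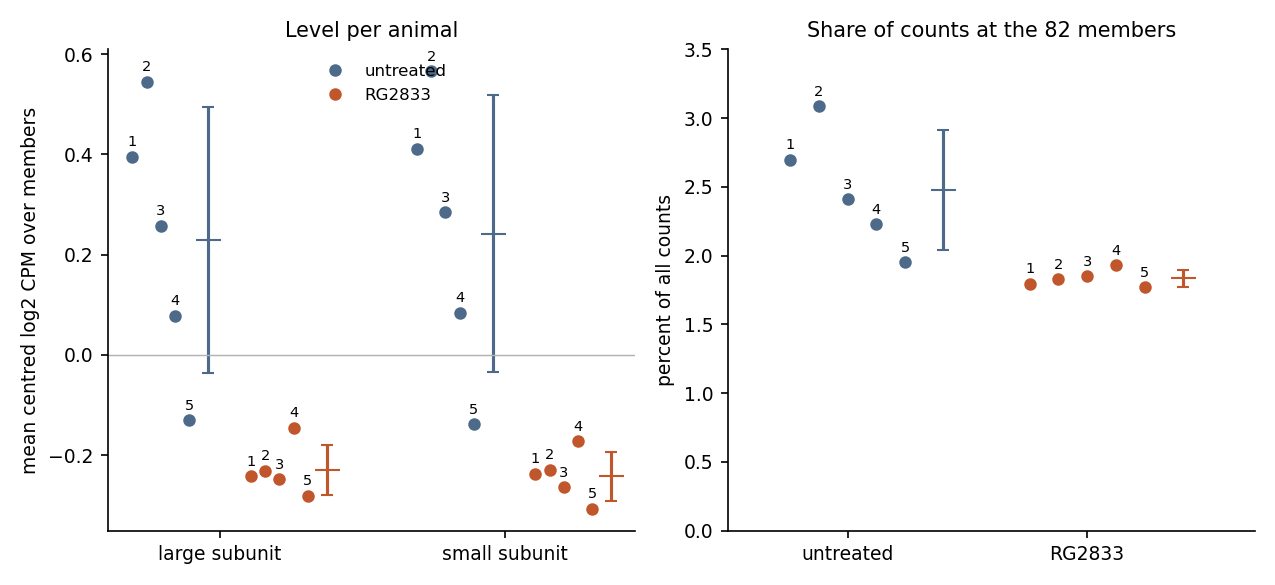
Left, mean centred log2 CPM over the tested members of each subunit, and right, percent of all counts at the 82 members. Points are animals with their replicate number, bars are mean ± SD (n = 5 per group). The 5 RG2833 animals lie between -0.31 and -0.15 on the left, below each untreated animal of the same subunit, with untreated replicate 5 closest.

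The members moved together from animal to animal after the group means were removed, with both groups pooled. After each group's mean was removed, the correlation of a member with the mean of the other members over the 10 animals had a median of 0.972, against 0.0101 for the correlation of the other 11711 tested genes with the member mean. These values are a description, since all genes of an animal share its library, depth and scaling. They rest mostly on the untreated animals, whose spread in the members was wider, and no value was computed for either group alone. The lowest correlations were those of Rps4y2 (0.539) and Rps27l (0.57), members with few counts. The SD of log2 CPM was larger in the untreated group in 80 of 80 members, with medians of 0.284 and 0.0685, and in 8837 of the 11711 other genes, with medians of 0.214 and 0.144.

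**Figure D3:**
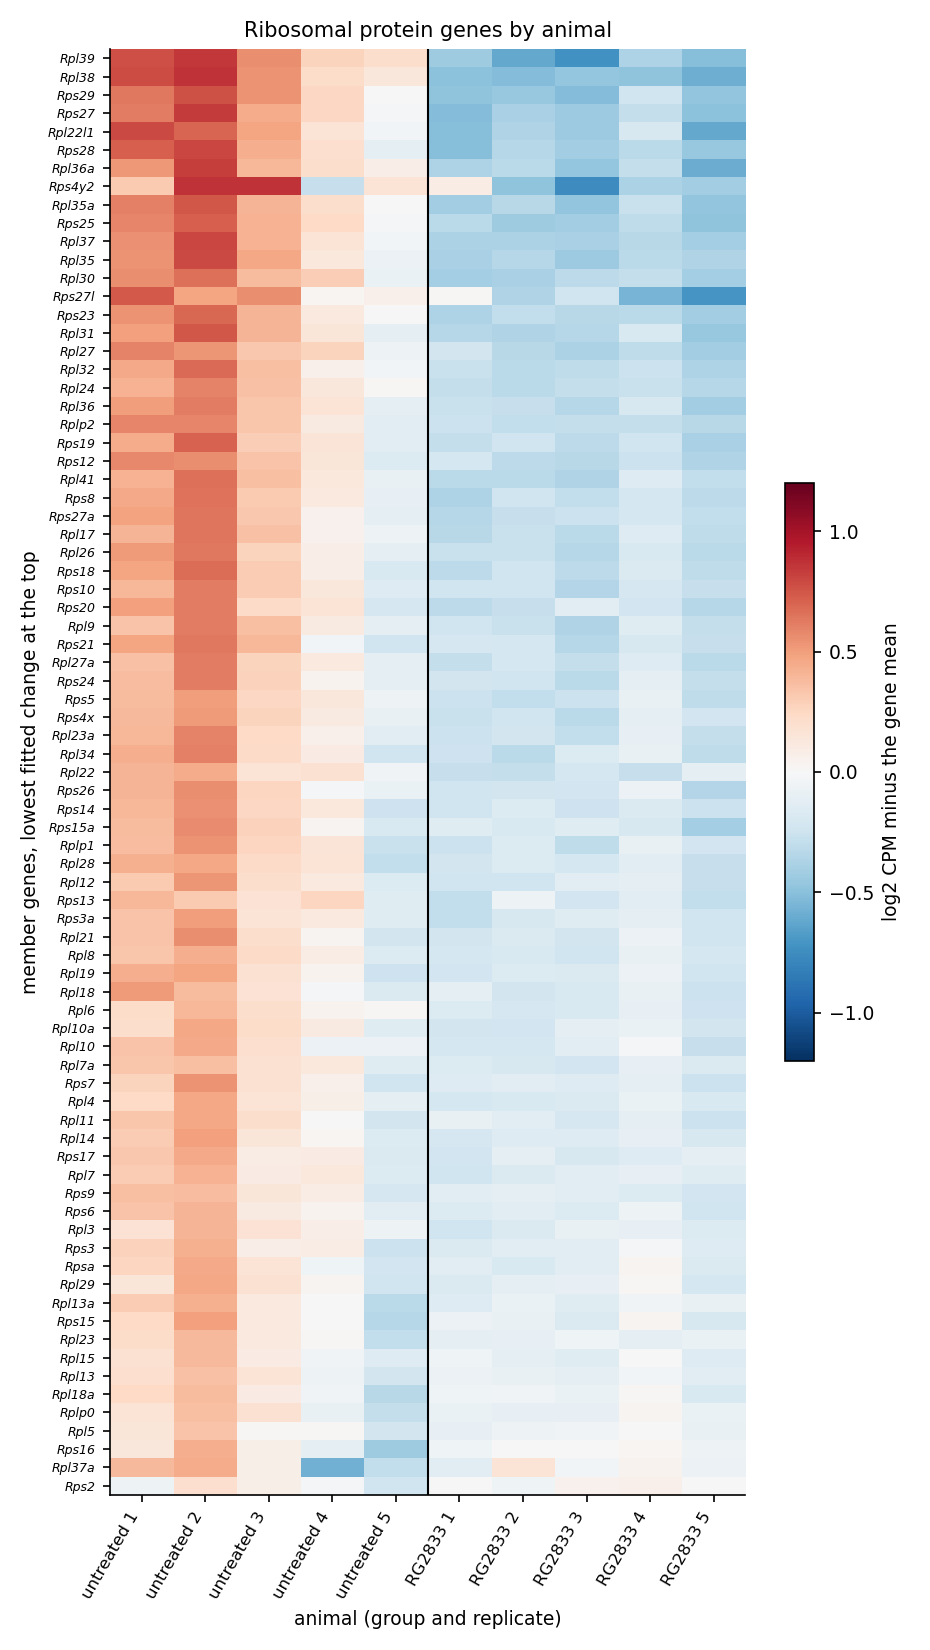
Log2 CPM of 79 tested members minus each gene's mean over the 10 animals (colour), with genes in the order of fitted change and animals in columns. Untreated replicates 1 to 3 are above the gene mean nearly throughout, untreated replicate 4 is nearer to it, and untreated replicate 5 and the RG2833 animals are mostly below it, with the contrast fading towards Rps2 at the foot.

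In the large subunit, the fall was greatest for Rpl39, which encodes a small protein that lines the tunnel through which the growing chain leaves the ribosome. Rpl39 was 87.6, 92.4, 75.4, 61.7 and 59.5 CPM in untreated replicates 1 to 5 and 38.2, 33.5, 30.9, 39.6 and 36.0 CPM in RG2833 replicates 1 to 5. Every RG2833 animal was well below the lowest untreated one, and the level fell to 47.3% (log2 ratio, the fitted log2 fold change, -1.08 ± 0.13, SE; adjusted p by edgeR = 0.00269). Rpl38, a small large-subunit protein, was 183, 194, 155, 124 and 117 CPM in the untreated animals and 75.3, 73.8, 76.8, 75.7 and 70.7 CPM in the RG2833 animals. It fell by 1.05 ± 0.13 on the log2 scale (SE; adjusted p by edgeR = 0.00346), and the 5 RG2833 values were nearly equal.

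Of the 9 members that form the exit tunnel or its rim (Rpl4, Rpl17, Rpl19, Rpl22, Rpl23a, Rpl26, Rpl31, Rpl35 and Rpl39), 7 were called lower and the median log2 fold change was -0.58, beside 57.5% of all tested members and 2.67% of all tested genes called lower. Of these 9, Rpl35 and Rpl39 passed in all 10 fits without 1 animal. Rpl35, at the tunnel rim, fell from 394 ± 92.2 to 231 ± 6.67 CPM (SD, n = 5; log2 ratio -0.77 ± 0.14, SE; adjusted p by edgeR = 0.0137). Rpl31 fell by 0.70, Rpl17 and Rpl26 by 0.58 each, and Rpl23a and Rpl22 by 0.48 each on the log2 scale. Rpl4, which reaches into the tunnel, and Rpl19 did not pass, with log2 fold changes of -0.34 and -0.38 (adjusted p by edgeR = 0.0622 and 0.0862).

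The stalk of the large subunit recruits elongation factors and is formed by Rplp0, Rplp1 and Rplp2 on a base with Rpl12. Its members spread widely. Rplp2 fell from 231 ± 47.8 to 151 ± 2.85 CPM (SD, n = 5; log2 ratio -0.62 ± 0.12, SE; adjusted p by edgeR = 0.0215), and Rpl12 fell by 0.42 ± 0.11 on the log2 scale (SE; adjusted p by edgeR = 0.0464). Rplp1 had a log2 fold change of -0.44 ± 0.12 and did not pass (adjusted p by edgeR = 0.0599). Rplp0, the scaffold of the stalk and a common reference gene in quantitative PCR, was 507, 581, 515, 426 and 371 CPM in the untreated animals and 428, 422, 422, 462 and 429 CPM in the RG2833 animals. Its groups overlapped, since untreated replicates 4 and 5 lay at or below most RG2833 values, and the log2 ratio of -0.15 ± 0.11 did not pass (SE; adjusted p by edgeR = 0.411).

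Rpl5 and Rpl11, which bind the 5S ribosomal RNA and can hold back the p53 regulator Mdm2, did not pass. Rpl5 was 512, 588, 468, 469 and 398 CPM in the untreated animals and 433, 445, 450, 465 and 436 CPM in the RG2833 animals, with a log2 fold change of -0.13 ± 0.09 (SE; adjusted p by edgeR = 0.421). The RG2833 values lay inside the untreated range. Rpl11 had a log2 fold change of -0.34 ± 0.11 (SE; adjusted p by edgeR = 0.0929).

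Near the peptidyl transferase centre, where amino acids are joined, Rpl8 fell by 0.38 ± 0.10 on the log2 scale (SE; adjusted p by edgeR = 0.0481). Rpl10 and Rpl3 had log2 fold changes of -0.35 and -0.31 and did not pass (adjusted p by edgeR = 0.0734 and 0.0535). For Rpl3 the groups did not overlap, from 467 to 645 CPM in untreated and from 413 to 456 CPM in RG2833 animals.

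In the small subunit, the lowest fold changes belonged to Rps29, Rps27 and Rps28, which encode small proteins, the former pair with a zinc-binding fold. Rps29 was 370, 407, 348, 283 and 239 CPM in untreated replicates 1 to 5 and 171, 174, 167, 202 and 172 CPM in RG2833 replicates 1 to 5. The groups did not overlap and the level fell to 53.8% (log2 ratio -0.89 ± 0.13, SE; adjusted p by edgeR = 0.00724). Rps27 fell from 208 ± 47.0 to 113 ± 7.15 CPM (SD, n = 5; log2 ratio -0.88 ± 0.13, SE; adjusted p by edgeR = 0.00742), and Rps28 from 131 ± 32.7 to 72.5 ± 3.88 CPM (-0.86 ± 0.15; adjusted p by edgeR = 0.0119). Rps25, which is used in internal ribosome entry, fell from 211 ± 40.9 to 121 ± 6.48 CPM (-0.80 ± 0.12; adjusted p by edgeR = 0.00724).

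Around the path of the mRNA, members differed. Rpsa, Rps14, Rps26 and Rps28 lie at the platform where the mRNA leaves. Rps28, Rps26 and Rps14 were called lower, the last 2 with log2 fold changes of -0.47 and -0.46 (adjusted p by edgeR = 0.042 and 0.0494), whereas Rpsa, also known as the laminin receptor, had -0.25 (adjusted p by edgeR = 0.194). Of Rps2, Rps3 and Rps9, which line the entry side, 0 passed (edgeR; 2 at an unadjusted p under 0.05, 1 by DESeq2, 0 by limma-voom). Of all tested members 57.5% were called lower, and of all tested genes 2.67%. The difference between the entry and exit sides was not tested. Rps2 was 512, 616, 561, 525 and 454 CPM in the untreated animals and 534, 516, 553, 559 and 532 CPM in the RG2833 animals. It was the only member with an estimate above 0 (log2 ratio 0.01 ± 0.08, SE; adjusted p by edgeR = 0.933).

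At the decoding site, Rps23 fell from 363 ± 71.3 to 220 ± 7.24 CPM (SD, n = 5; log2 ratio -0.72 ± 0.12, SE; adjusted p by edgeR = 0.0105), and Rps15 had a log2 fold change of -0.22 (adjusted p by edgeR = 0.2996). Rps6, whose protein is phosphorylated by the S6 kinases downstream of mTOR, was 451, 472, 385, 367 and 324 CPM in the untreated animals and 318, 324, 318, 341 and 301 CPM in the RG2833 animals. Untreated replicate 5 lay among the RG2833 animals, and the log2 fold change of -0.32 ± 0.10 did not pass (SE; adjusted p by edgeR = 0.0785). Rps27a, made as a fusion with ubiquitin, fell from 403 ± 85.0 to 270 ± 8.64 CPM (SD, n = 5; log2 ratio -0.58 ± 0.12, SE; adjusted p by edgeR = 0.0268).

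**Figure D4:**
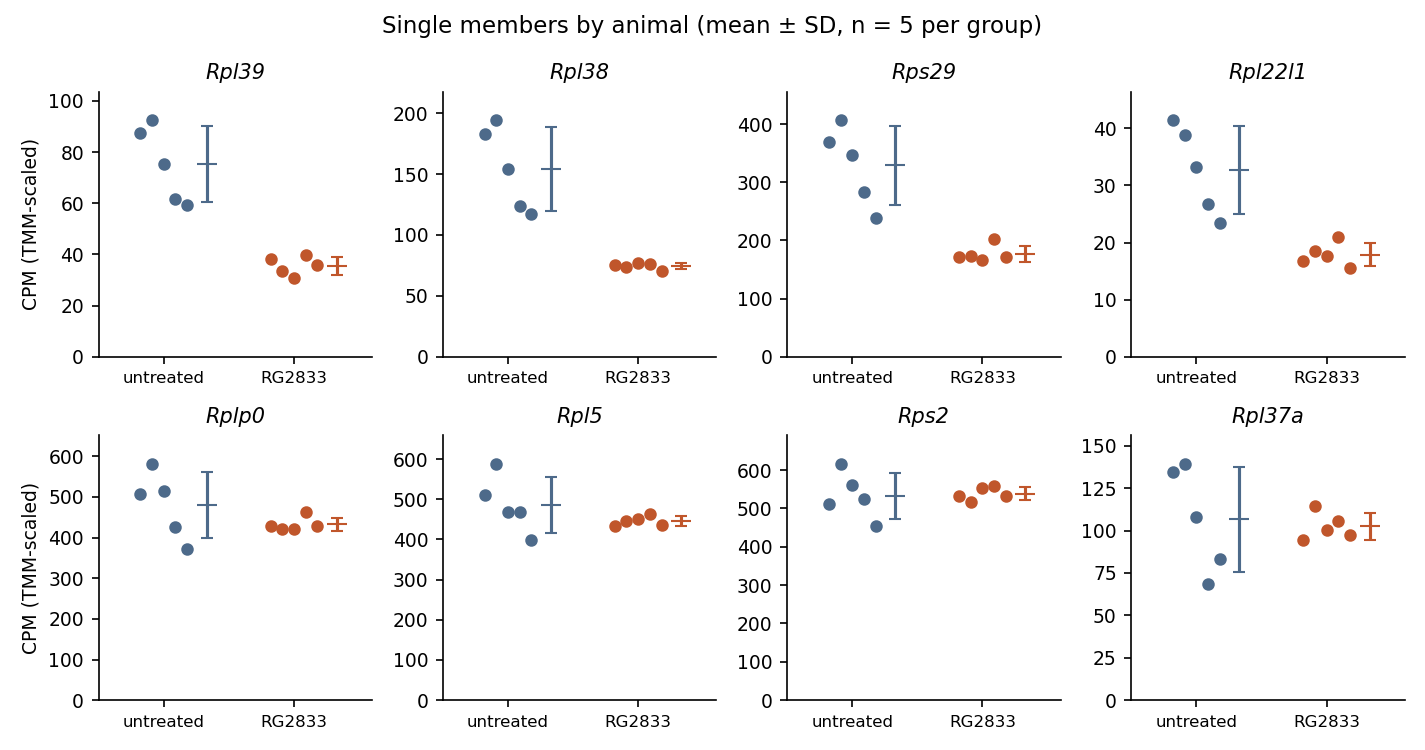
TMM-scaled CPM of 8 members in each animal (points, replicates 1 to 5 from left to right), with mean ± SD (n = 5). The groups are apart for Rpl39, Rpl38, Rps29 and Rpl22l1 in the upper row and overlap for Rplp0, Rpl5, Rps2 and Rpl37a in the lower row.

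Several members are variant forms of another subunit, and their reads may be shared with near-identical copies, which the counts at hand do not resolve. Rpl22l1, a paralog of Rpl22 that can take its place, was 41.4, 38.8, 33.2, 26.8 and 23.4 CPM in the untreated animals and 16.8, 18.6, 17.7, 20.9 and 15.6 CPM in the RG2833 animals. It fell by 0.87 ± 0.15 on the log2 scale (SE; adjusted p by edgeR = 0.0137), and Rpl22 itself by 0.48 ± 0.09 (adjusted p by edgeR = 0.0185). Rps27l, the paralog of Rps27, fell from 7.22 ± 1.54 to 4.31 ± 0.849 CPM (SD, n = 5; log2 ratio -0.74 ± 0.19, SE; adjusted p by edgeR = 0.0435). Rps4x, an X-linked gene, fell by 0.48 (adjusted p by edgeR = 0.0268). Its relative Rps4y2, at 4.79 ± 1.56 and 2.72 ± 0.61 CPM, had overlapping groups and did not pass (log2 ratio -0.81 ± 0.25, SE; adjusted p by edgeR = 0.0748). Rpl36a fell by 0.83 ± 0.13 on the log2 scale (SE; adjusted p by edgeR = 0.00724), and its paralog Rpl36al, outside the rule, by 0.49 ± 0.10 (adjusted p by edgeR = 0.0239). Rpl36al passed in 4 of the 10 fits without 1 animal.

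Rpl37a was among the members with an estimate nearest to 0, with Rps16 (log2 fold change -0.06) and Rps2, and a pseudogene of it, Rpl37a-ps1, is counted as a gene of its own. Rpl37a was 134, 139, 108, 68.6 and 83.4 CPM in the untreated animals and 94.3, 115, 100.2, 106 and 97.6 CPM in the RG2833 animals (log2 ratio -0.06 ± 0.17, SE; adjusted p by edgeR = 0.863). Rpl37a-ps1 was 195, 230, 187, 161 and 134 CPM in the untreated animals and 72.9, 55.0, 69.9, 68.9 and 74.1 CPM in the RG2833 animals. Of the counts of the pair, the pseudogene held 63.3 ± 4.08% in untreated and 39.9 ± 4.52% in RG2833 animals (SD, n = 5). Summed, the pair fell from 288 ± 64.7 to 171 ± 2.84 CPM, with a lowest untreated value of 218 and a highest RG2833 value of 175 CPM (log2 ratio -0.76 ± 0.13, SE; adjusted p by edgeR = 0.0123). How reads were divided between the copies was not tested.

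Of the other ribosomal proteins outside the symbol rule, Fau, the ubiquitin-like fusion that yields a small-subunit protein, fell from 402 ± 68.8 to 284 ± 13.4 CPM (SD, n = 5; log2 ratio -0.50 ± 0.11, SE; adjusted p by edgeR = 0.0277). Fau passed in 2 of the 10 fits without 1 animal. Gnb2l1, the older symbol of the scaffold Rack1 on the small subunit, had a log2 fold change of -0.28 ± 0.08 and did not pass (SE; adjusted p by edgeR = 0.0599), although its groups did not overlap.

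Members with and without the start signal were both among those called lower, and the difference between them was not tested. A TOP tract at the annotated start was present in 13 of the 35 members called lower with a sequence (37.1%) and in 11 of the 30 that did not pass (36.7%). Within the wider window the same letters stood in 24 of the 35 (68.6%) and in 24 of the 30 (80.0%). The median log2 fold change was -0.46 in the 24 members with a tract at the annotated start and -0.45 in the 41 with another start. Among the starts shown, Rpl39 and Rpl37a both hold a tract at the annotated first base, and Rpl38 and Rps2 do not. Rpl38 and Rps2 each have a run of C and T directly before that base, which falls in the wider window.

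Other mRNAs listed as TOP mRNAs from general knowledge, mostly elongation and initiation factors, were read for comparison. Of the 11 with a sequence, 0 held the tract at the annotated start and 7 held it within the wider window (63.6%). Of 16 tested, 2 were lower and 0 higher, with a median log2 fold change of -0.13 (at an unadjusted p under 0.05, 6 lower and 0 higher; DESeq2, 3 and 0; limma-voom, 2 and 0). The share called lower was 12.5%, beside 2.67% of all tested genes, which had 12.7% lower at an unadjusted p under 0.05. Eef1b2, an exchange factor subunit of elongation, fell from 162 ± 23.9 to 108 ± 6.14 CPM (SD, n = 5; log2 ratio -0.59 ± 0.10, SE; adjusted p by edgeR = 0.0114). Eif3k, an initiation factor subunit, fell by 0.60 ± 0.11 on the log2 scale (SE; adjusted p by edgeR = 0.0146). Of 9 genes tested for the regulators of TOP mRNAs (among them Mtor, Rps6kb1 and Myc), 0 passed in either direction (edgeR; at an unadjusted p under 0.05, 0 lower and 2 higher; DESeq2, 0 and 1; limma-voom, 0 and 0).

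Genes for building ribosomes were read beside their products. They comprised RNA polymerase I, processing of ribosomal RNA and assembly of the large subunit. Of 89 tested, 2 were lower and 0 higher, with a median log2 fold change of -0.05 (at an unadjusted p under 0.05, 8 lower and 5 higher; DESeq2, 5 and 2; limma-voom, 2 and 0). Nop58, a core protein of the box C/D particles that methylate ribosomal RNA, fell from 43.8 ± 3.25 to 31.9 ± 1.54 CPM (SD, n = 5; log2 ratio -0.46 ± 0.07, SE; adjusted p by edgeR = 0.00932). Gnl3, a nucleolar GTPase, fell by 0.38 ± 0.09 on the log2 scale (SE; adjusted p by edgeR = 0.0411). Of the 10 fits without 1 animal, Nop58 passed in 10 and Gnl3 in 2. The share called lower was 2.25%, near the 2.67% of all tested genes. Of the 72 genes of the mitochondrial ribosome tested, 6 were lower and 0 higher, with a median log2 fold change of -0.20 (at an unadjusted p under 0.05, 33 lower and 2 higher; DESeq2, 15 and 1; limma-voom, 5 and 0). Thus 8.33% were called lower, beside 2.67% of all tested genes, which had 12.7% lower at an unadjusted p under 0.05. Their mean centred log2 CPM ran from -0.0326 to 0.237 in untreated and from -0.173 to -0.037 in RG2833 animals. These ranges nearly touched but did not overlap, as for the cytosolic members. Their summed levels did overlap (2414 to 2901 and 2242 to 2476 CPM). The differences between these lists and the cytosolic ribosomal protein genes were not tested.

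**Figure D5:**
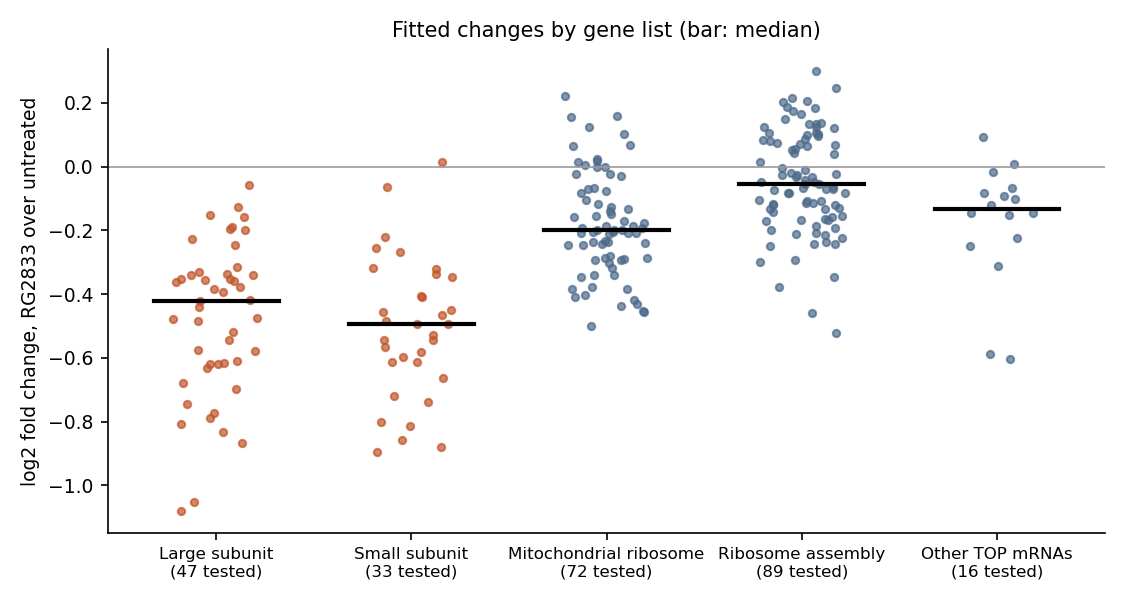
Fitted log2 fold change (RG2833 over untreated) of each tested gene in 5 lists, with the median as a bar. The medians are -0.42 and -0.49 for the large and small subunits, -0.20 for the mitochondrial ribosome, -0.05 for ribosome assembly genes and -0.13 for other TOP mRNAs.

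Other measures differed between the groups too. Ribosomal RNA loci held 2.91%, 5.36%, 5.08%, 2.70% and 3.08% of counts in untreated replicates 1 to 5 and 1.94%, 1.96%, 1.13%, 1.43% and 1.36% in RG2833 replicates 1 to 5. This share and the member level were both highest in untreated replicate 2, and the order of the animals differed in part. With the log2 of this share as a covariate, 0 of 80 members passed (edgeR). Bc1, a short RNA of neurons made by RNA polymerase III and named after its values were seen, was 339, 318, 323, 171 and 179 CPM in the untreated animals and 25.6, 18.1, 18.9, 20.9 and 19.2 CPM in the RG2833 animals, without overlap. Bc1 fell by 3.69 ± 0.22 on the log2 scale (SE; adjusted p by edgeR = 5.7e-06). With Bc1 and the ribosomal RNA loci left out of the counts, 48 members were called lower. Because the ribosomal RNA share separates the groups, its part and that of the treatment cannot be told apart.

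The summed level of 12 microglial markers was 1204, 1292, 993.5, 846 and 719 CPM in the untreated animals and 695, 795, 722, 857 and 833 CPM in the RG2833 animals. The untreated animals had the same order in these markers as in the members, and the RG2833 animals had another. The same held for the summed level of the other TOP mRNAs, so the order was not particular to the microglial markers. Of the 12, 2 were called lower, Aif1 and Ctss, named after their values were seen (log2 fold changes -0.74 and -0.72; adjusted p by edgeR = 0.0496 and 0.0322), and 0 higher, beside 2.67% of all tested genes called lower. Their groups overlapped, each passed in 2 of the 10 fits without 1 animal, DESeq2 called 2 of the 12 lower and limma-voom 1. The summed level of the 8 excitatory neuron markers was 2292 to 3576 CPM in untreated and 3831 to 4587 CPM in RG2833 animals, without overlap. This sum is mostly Slc17a7 and Camk2a. With each marker weighted equally, as a mean of centred log2 CPM, the groups overlapped (-0.83 to 0.42 and 0.07 to 0.56). All 8 estimates were above 0, with a median log2 fold change of 0.52. Of the 8, Camk2a was called higher (log2 fold change 0.67; adjusted p by edgeR = 0.0459) and 0 lower, beside 2.41% of all tested genes called higher. The groups of Camk2a overlapped, and it passed in 1 of the 10 fits without 1 animal. At an unadjusted p under 0.05, 4 of the 8 were higher and 0 lower, against 11.8% of all tested genes higher. DESeq2 called 4 higher and 0 lower, and limma-voom 2 and 0. The endothelial and mural markers summed to 314 to 446 and 295 to 344 CPM, with 0 of 10 called (edgeR; 3 lower at an unadjusted p under 0.05, 1 by DESeq2, 0 by limma-voom). Over all tested genes, 2.67% were called lower and 12.7% were lower at an unadjusted p under 0.05. Of the 8 choroid plexus markers, 4 were tested and had estimates below 0, with a median log2 fold change of -1.60. Without untreated replicate 1 the median was -0.53 and the log2 fold change of Ttr was 0.74 in place of -5.10, and Prlr no longer passed (log2 fold change -0.89; adjusted p by edgeR = 0.0653). With all animals, Prlr was called lower (log2 fold change -0.86; adjusted p by edgeR = 0.0394), and its groups and those of Kcne2 did not overlap; these markers were named after their values were seen. For astrocytes, oligodendrocytes and inhibitory neurons the ranges of the summed levels overlapped. The part of these cell type markers in the result was not tested. Over all tested genes the log2 fold change had a trend with gene span in the genome, and after its removal the median of the members was -0.39.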

How the data were processed

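The members and gene lists were chosen with earlier results of these data known. Per the labels' protocols, RNA was isolated with a column kit and strand-specific mRNA libraries were made. The submitters' processing notes name bcl2fastq 2.17, Bowtie2 2.1.0, RSEM 1.2.15, edgeR and build rn6, with no roles; the annotation and the strand setting are not given in the sources used here. The authors deposited expected counts (RSEM estimates, not normalized) and a signal, CPM after TMM scaling, whose columns do not sum to the usual CPM total; the latter served in alternatives only. Each column was assigned by the sample title in its heading.

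Expected counts were rounded and filtered with filterByExpr. The main test was edgeR 4.0.16 (R 4.3.3), quasi-likelihood, TMM scaling, 10 animals and no covariate, with p-values adjusted over all 11791 tested genes. The SE is the fold change over the root of F. CPM are TMM-scaled. Log2 CPM used a prior count of 2. Alternatives were other scalings, filters on low counts, DESeq2 1.42.0, limma 3.58.1 (voom and trend), a replicate block, sva 3.50.0, a ribosomal RNA covariate and leaving out animals. Scripts were tested on simulated counts. Across 20 replicate pairs the chi-square per degree of freedom was 4.601 to 36.28, so each library counted as 1 animal.

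Members named were the 6 with the smallest p among those called, the 5 lowest and 5 highest log2 fold changes and those in the role lists. A further part of the rule, on levels per coding length, was not used, since no lengths or protein sequences were at hand, and levels were not compared between genes. Symbols were matched to RefSeq (GRCr8) by name or synonym. Single values of some genes are not reported here; counts over the members include every tested member.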

Additional observations from a re-analysis of the deposited data

Results flagged for a closer look

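Among 100 groups of 5 values examined (named members, ribosomal proteins outside the rule, the pseudogene, the subunit levels and the share of counts), 6 held a value whose gap to the nearest other, divided by the range of the group, exceeded Dixon's limit for 5 samples (0.71). Chance flags about 5 of 100. RG2833 replicate 4 was the high value in 5 of them. Rps29 was 202 CPM there against 167 to 174 CPM in the other RG2833 animals, Rplp0 was 462 against 422 to 429 CPM, and Rpl4 was 539.9 against 493 to 504 CPM. Rps3 was 251 against 226 to 233 CPM, and Rpsa was 463 against 399.8 to 415 CPM. The Rpl37a pseudogene Rpl37a-ps1 was 55.0 CPM in RG2833 replicate 2 against 68.9 to 74.1 CPM. Members measured in 1 animal are not independent of each other.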

How the results depend on the processing

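The count of 46 members lower stayed within 1.5 times under the other scalings, filters and tests (40 to 66), and 0 members were called higher in any fit. It moved with the replicate block (23, with 0.933% of all tested genes called lower), 1 surrogate variable (0) and the ribosomal RNA share as covariate (0), and ran from 16 to 66 when one animal was left out. The same-numbered animals did not deviate together (correlations of -0.319 to 0.151 over 5 numbers), so the numbers pair nothing. The medians for all, large and small subunit members moved only with the ribosomal RNA covariate (-0.21, -0.20 and -0.21), and without one animal ran from -0.56 to -0.38, -0.53 to -0.35 and -0.57 to -0.42. The group differences in level ran from -0.56 to -0.39, -0.55 to -0.38 and -0.58 to -0.40, and that in share from -0.77 to -0.49 percentage points. Of the assembly genes, 2 were lower; DESeq2 gave 5 lower and 2 higher, the block 1 lower, and the surrogate variable and covariate 0 each. Without one animal it was 1 to 6 lower and 0 to 2 higher. Of the other TOP mRNAs, 2 were lower, 0 with the surrogate variable or covariate, and 1 to 4 without one animal. Among the 41 named members, direction turned in some that had not passed, with the covariate in Rplp0 (0.16), Rpl5 (0.04), Rps16 (0.29), Rpl37a (0.39), Rps15 (0.14), Rps4y2 (0.31) and Rpsa (0.0203), and with the surrogate variable in Rpl37a (0.20). Without one animal the log2 fold change ran from -0.1613 to 0.0527 in Rps16, from -0.181 to 0.058 in Rpl37a and from -0.0385 to 0.0713 in Rps2. The causes were not tested. Depth limits the members with few counts: Rpl3l and Rpl39l could not be tested, and Rps4y2 and Rps27l were below 10 CPM on average.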
